A study of Mus musculus with 58 samples.

Results

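Rnf123, Ubac1 and Cdkn1b were followed over the day in control and diabetic mouse retinas. Rnf123 encodes the RING-type ubiquitin ligase also called KPC1, Ubac1 encodes its partner KPC2, and Cdkn1b encodes their substrate, the cyclin-dependent kinase inhibitor p27. The 3 genes were picked by symbol from the 52459 genes of the count table, and all 3 were among the 19120 genes that passed the filter on low counts, a median above 4 normalized counts over all libraries. Rnf123 was put forward with its measured values in these libraries in view, so its levels and genotype differences are given as a description with no test. Ubac1 and Cdkn1b were added as its complex partner and substrate, and for these the test over all genes is given.

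Retinas came from 4-month-old male mice kept in 12 h of light and 12 h of dark. Diabetic mice (genotype C57BL/6-Ins2Akita/J) were heterozygous for the Ins2Akita mutation, which leads to misfolded insulin, loss of beta cells and high blood glucose. Control mice (C57/BL/6) were littermates without the mutation, and no group received an agent. All mice were perfused with cold saline, and the night retinas were collected under dim red light. The 30 control libraries were spread over 6 time points, 5 at each except for ZT5 (6) and ZT21 (4), where ZT counts the hours since lights on and lights off is ZT12. The 28 diabetic libraries numbered 5 at each time point except for ZT13 and ZT17 (4 each). Each library came from an individual retinal sample, and the study calls the replicates biological. The model is one of severe insulin-dependent diabetes in males, and 4 months is an age before overt retinopathy.

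A ubiquitin ligase attaches ubiquitin to chosen proteins, which marks many of them for the proteasome. KPC, the Kip1 ubiquitylation-promoting complex, is made of the catalytic subunit Rnf123 and of Ubac1, which stabilizes the ligase and carries ubiquitin-like and ubiquitin-associated domains. It works in the cytoplasm, where it marks p27 in the G1 phase of the cell cycle after p27 has been exported from the nucleus, while the better known SCF ligase with the receptor Skp2 acts on p27 in the nucleus. Rnf123 is also known to drive the processing of the NF-kB precursor p105 to p50, and to bind the RNA sensors RIG-I and MDA5. In the adult retina nearly all neurons have left the cell cycle, and p27 is known there as a brake on the division of Müller glia. The counts measure transcripts only, so ubiquitin ligase activity and p27 protein were not measured.

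In the Gencode annotation of GRCm38, Rnf123 lies on chromosome 9 from 108051534 to 108083346 on the minus strand, Ubac1 on chromosome 2 from 25998543 to 26021747 on the minus strand, and Cdkn1b on chromosome 6 from 134920401 to 134925513 on the plus strand. The 250 bases before the RefSeq start of each gene (GRCm38.p6) are printed to show what sequence the 3 loci hold there, as all 3 transcripts are compared below and only 1 stood apart between genotypes. Rnf123 is read from chr9:108079302-108079551 on the minus strand, Ubac1 from chr2:26021761-26022010 on the minus strand, and Cdkn1b from chr6:134920151-134920400 on the plus strand. Capitals mark matches to 3 motifs searched on both strands, the E-box CACGTG of clock factors, the forkhead (FOXO) element GTAAACA and the CCAAT box, letters CCAAT.
Rnf123: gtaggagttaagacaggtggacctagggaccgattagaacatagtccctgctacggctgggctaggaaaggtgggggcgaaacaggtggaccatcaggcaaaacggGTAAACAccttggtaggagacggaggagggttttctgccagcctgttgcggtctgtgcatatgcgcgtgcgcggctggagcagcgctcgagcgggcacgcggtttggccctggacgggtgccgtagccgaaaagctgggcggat
Ubac1: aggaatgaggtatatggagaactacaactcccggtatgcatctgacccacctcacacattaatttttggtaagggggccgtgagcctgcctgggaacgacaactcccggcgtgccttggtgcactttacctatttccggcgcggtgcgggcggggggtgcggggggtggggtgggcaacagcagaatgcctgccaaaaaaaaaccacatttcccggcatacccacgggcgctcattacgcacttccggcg
Cdkn1b: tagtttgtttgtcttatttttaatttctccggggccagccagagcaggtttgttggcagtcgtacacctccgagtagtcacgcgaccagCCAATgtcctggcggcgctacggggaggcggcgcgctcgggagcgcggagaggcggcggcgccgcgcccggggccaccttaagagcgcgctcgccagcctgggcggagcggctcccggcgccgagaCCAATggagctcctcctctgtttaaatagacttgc

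The Rnf123 sequence held 1 GTAAACA, which begins 144 bases before the start, a motif found in 3.17% of the 32851 promoters of the same length. The Cdkn1b sequence held 2 CCAAT boxes, which begin 161 and 35 bases before the start, and 33.8% of promoters had at least 1. The Ubac1 sequence held none of the 3 motifs, and no E-box was found in any of the 3 sequences, where 6.02% of promoters had one. GC content was 60.8% for Rnf123, 58.4% for Ubac1 and 64.4% for Cdkn1b, against a median of 52.4% over all promoters. The RefSeq start of Rnf123 lies inside the Gencode gene, whose annotated span reaches further upstream. The motifs describe the letters only, as no binding was measured.

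Libraries held 7773117 to 22147398 reads counted on genes, with a median of 15406440. Rnf123 had 2017 to 6891 raw reads per library, Cdkn1b 816 to 2516 and Ubac1 245 to 728. Rod markers were high in all libraries, with a sum over 5 genes of 480563 to 736787 normalized counts. Lens transcripts were high in 3 control libraries (ZT1 replicate 6, ZT17 replicate 5 and ZT21 replicate 2), where 4 lens genes summed to 20837 to 30318 normalized counts, against at most 639.8 in all other libraries. Control ZT17 replicates 1 and 3 were the 2 libraries least like the others. Markers of red blood cells summed to at most 190.0 and those of dividing cells to at most 21.5 normalized counts in any library. For Rnf123, control ZT21 replicate 4 (4625) stood apart from the other libraries of its group (4227 to 4290).

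Rnf123 had a high read count, with a mean of 3861 normalized counts that lay above those of 97.1% of the genes tested. This rank is not scaled by length, and Rnf123 has 6.75 kb of annotated exon. Per kilobase of annotated exon, control retinas had 633 ± 59.0 normalized counts (SD, n = 30) of Rnf123, 346 ± 28.1 of Cdkn1b and 171 ± 9.88 of Ubac1. Diabetic retinas had 506 ± 30.3 per kilobase (SD, n = 28) of Rnf123, 345 ± 28.2 of Cdkn1b and 172 ± 12.8 of Ubac1. On this length scale the ligase transcript was thus the most abundant of the 3 and the partner transcript the least in both genotypes, and only the Rnf123 level differed between them by more than 1 SD. In a bulk retina, fewer cells of a type and less RNA per cell cannot be told apart.

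In the day, Rnf123 was lower in the diabetic retinas at each of the 3 time points. At ZT1 the control libraries had 4371, 3843, 4021, 4372 and 4402 normalized counts of Rnf123, and the diabetic libraries 3436, 3145, 3463, 3666 and 3167. At ZT5 the 6 control libraries ran from 3900 to 4496 with a median of 4125, and the diabetic libraries had 3288, 3315, 3305, 3580 and 3380. At ZT1 and ZT5 every diabetic library was below every control library. At ZT9 the control libraries had 3740, 4325, 3924, 5166 and 4304, and the diabetic libraries 3391, 3066, 3787, 3698 and 3605. Here the groups overlapped, as the lowest control (3740) was below the highest diabetic library (3787).

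At night the order of the genotypes was the same. At ZT13 the control libraries had 4436, 3560, 3908, 4561 and 4180 normalized counts, and the diabetic libraries 3294, 3169, 3389 and 3409. At ZT17 the control libraries had 4988, 4388, 5387, 3980 and 4073, and the diabetic libraries 3477, 3799, 3163 and 3400. At ZT21 the control libraries had 4235, 4227, 4290 and 4625, and the diabetic libraries 3671, 3256, 3691, 3292 and 3303. At all 3 night time points every diabetic library was below every control library.

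Rnf123 groups thus did not overlap at 5 of the 6 time points, while those of Ubac1 and Cdkn1b overlapped at all 6. The share of all genes tested with every diabetic below every control library was 0.476% (ZT1), 0.69% (ZT5), 0.434% (ZT9), 0.439% (ZT13), 1.05% (ZT17) and 1.06% (ZT21). These shares stand beside the Rnf123 count for reference only, since Rnf123 was put forward with these values known. Over the whole day 8 of the 28 diabetic libraries were above the lowest control library (3560, at ZT13) and 2 of the 30 control libraries were below the highest diabetic library (3799, at ZT17). Over all 58 libraries no gene had every diabetic library below every control library (0%).

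**Figure D1:**
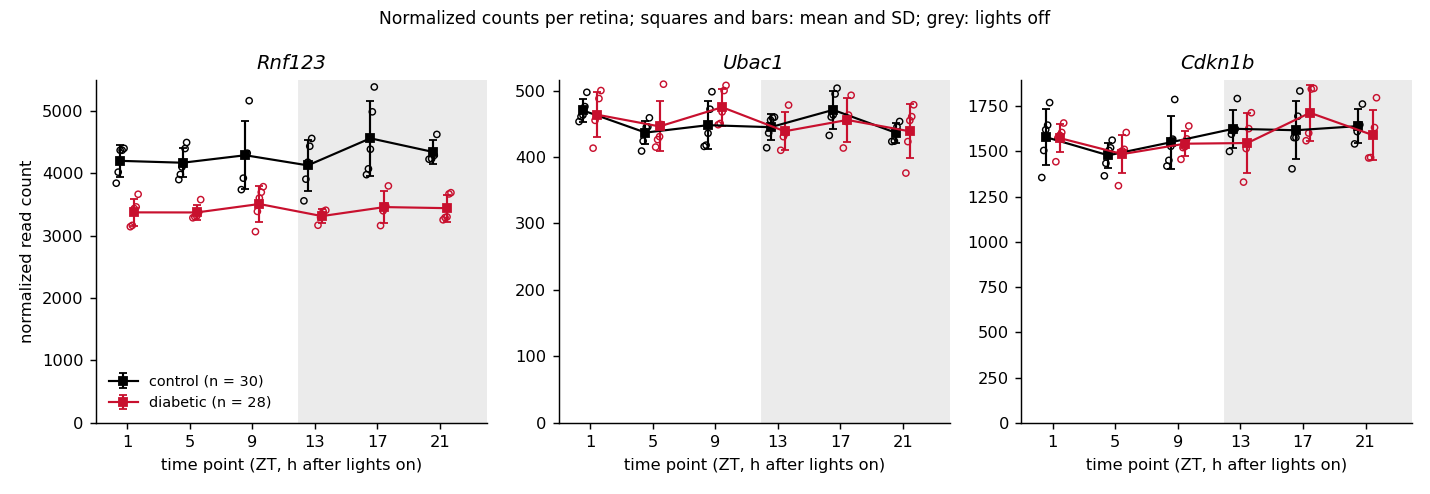
Normalized read counts (y axis, from 0) of Rnf123, Ubac1 and Cdkn1b against the time point in ZT hours (x axis), with 1 open circle per library, squares and bars for the mean and SD of each group, black for control (n = 30) and red for diabetic retinas (n = 28), and grey for lights off. The Rnf123 means of the diabetic groups (3315 to 3509) lie below those of the control groups (4129 to 4563) at all 6 time points, while the Ubac1 and Cdkn1b points of both genotypes lie on top of each other.

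Over all time points Rnf123 had 4278 ± 398 normalized counts in control (SD, n = 30) and 3414 ± 204 in diabetic retinas (SD, n = 28). The fitted log2 fold change of diabetic against control was -0.33 (SE 0.029), which corresponds to -20.2%. The difference was of similar size at each time point, with log2 fold changes of -0.31 (ZT1), -0.31 (ZT5), -0.29 (ZT9), -0.31 (ZT13), -0.40 (ZT17) and -0.34 (ZT21), each with an SE between 0.069 and 0.076. Over all libraries the spread was wider in control retinas, with a coefficient of variation of 9.31% against 5.99% in diabetic retinas. It was narrower in control retinas at ZT1 (6.06% against 6.49%) and ZT21 (4.36% against 6.35%). Rnf123 ranked 499th of all 19120 genes by absolute log2 fold change. The value was -0.33 without the 3 libraries with lens transcripts and -0.30 without the 2 libraries least like the others. Control ZT9 replicate 4 was nearly as unlike the others, with a median correlation of 0.9783 against 0.9779 and 0.9770 for those 2. It was left out only alone, which gave -0.31. These libraries had the highest Rnf123 counts of all (5387, 5166 and 4988), and a fit without all of them was not run.

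With single libraries left out, the Rnf123 value moved most at ZT9, from -0.29 to -0.22 without control replicate 4 (5166). At ZT17, control replicates 1 and 3, the 2 libraries least like the others, also had the highest Rnf123 counts at ZT17 (4988 and 5387). With both left out, the control mean at ZT17 moved from 4563 ± 606 (SD, n = 5) to 4147 ± 214 (SD, n = 3), and the log2 fold change from -0.40 to -0.27. The 3 remaining control libraries were still above all 4 diabetic libraries. Whether the difference varies with time was not tested for this gene.

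Ordered by their means, all 6 diabetic groups came first, from 3315 ± 110 at ZT13 to 3509 ± 288 at ZT9, and all 6 control groups followed, from 4129 ± 405 at ZT13 to 4563 ± 606 at ZT17. The step between the highest diabetic and the lowest control group was 619.8 normalized counts, larger than the SD of either group. The other 10 steps between neighbours in this order were smaller than the larger SD of the pair, so time points within a genotype could not be placed in a firm order. For Ubac1 and Cdkn1b none of the 11 steps exceeded the larger SD, and the genotypes were interleaved. Ubac1 group means ran from 436 ± 15.3 (control ZT21) to 475 ± 27.6 (diabetic ZT9). Cdkn1b group means ran from 1478 ± 69.6 (control ZT5) to 1713 ± 155 (diabetic ZT17).

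Ubac1, the partner that completes the ligase complex, did not differ detectably between genotypes. Control libraries ran from 409 to 504 normalized counts with a median of 453, and diabetic libraries from 376 to 510 with a median of 454. Nearly the whole range was shared, as all 30 control libraries were below the highest diabetic library. The log2 fold change was 0.0057 (SE 0.027, edgeR quasi-likelihood test, adjusted p = 0.961), with a 95% confidence interval from -3.23% to 4.15%. Over single time points the log2 fold change lay between -0.049 at ZT17 and 0.081 at ZT9, and the smallest adjusted p was 0.912 (edgeR). A loss of the size fitted for Rnf123 was outside the interval for Ubac1 at all 6 time points, whose lower bounds ran from -2.99% at ZT9 to -11.7% at ZT17.

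Cdkn1b, the substrate, did not differ detectably either. Control libraries ran from 1355 to 1833 normalized counts with a median of 1571, and diabetic libraries from 1310 to 1848 with a median of 1571. The ranges were almost the same, and 26 of the 28 diabetic libraries were above the lowest control library. The log2 fold change was -0.0045 (SE 0.031, edgeR, adjusted p = 0.975), with a 95% confidence interval from -4.51% to 4.07%. At ZT17, where the value was largest, diabetic libraries had 1844, 1558, 1848 and 1601 normalized counts and control libraries 1403, 1694, 1576, 1833 and 1576. These overlapped, with a log2 fold change of 0.082 (SE 0.076, edgeR, adjusted p = 0.856) that was 0.0064 without control replicates 1 and 3. At the other 5 time points it lay between -0.066 at ZT13 and 0.0046 at ZT5.

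Neither Ubac1 nor Cdkn1b was called at any time point or over all of them, and none of their 14 tests had an unadjusted p under 0.05. For comparison, 2.99% of the genes tested were called over all time points at an adjusted p under 0.05, 1.58% higher and 1.41% lower in diabetic retinas. At single time points the share was 0.0105% (ZT1), 0.0209% (ZT5), 0.00523% (ZT9), 0% (ZT13), 0.167% (ZT17) and 0% (ZT21). At ZT13 and ZT21 edgeR gave 852 and 892 genes at an unadjusted p under 0.05, and DESeq2 called 1 and 2 genes.

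**Figure D2:**
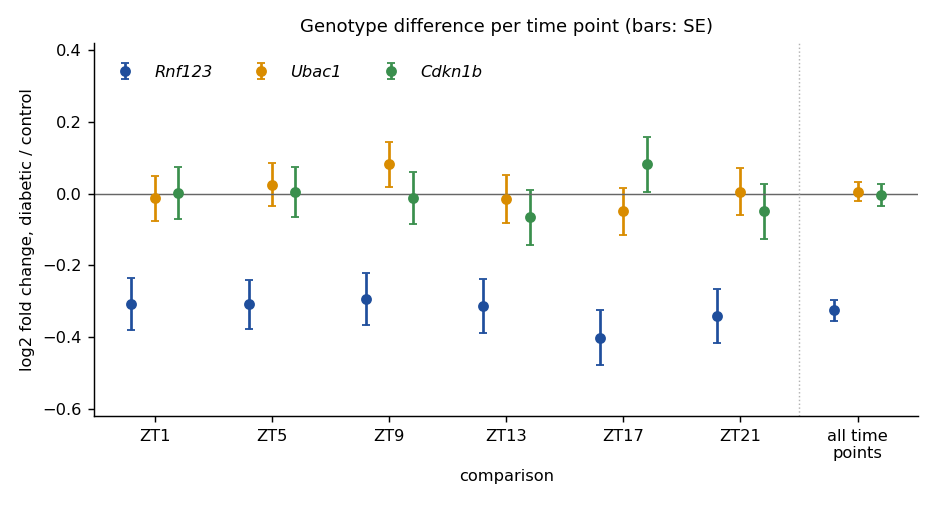
Log2 fold change of diabetic against control (y axis) of Rnf123, Ubac1 and Cdkn1b at each of the 6 time points and over all of them (x axis), with bars for the SE. The Rnf123 values at single time points lie between -0.40 and -0.29, those of Ubac1 between -0.049 and 0.081, and those of Cdkn1b between -0.066 and 0.082.

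As Rnf123 was lower in diabetic retinas and its partner and substrate did not differ detectably, the proportions of the transcripts were also described. Within each library, the level of Rnf123 per kilobase of exon was divided by that of Ubac1. This ratio was 3.70 ± 0.347 in control (SD, n = 30, range 3.07 to 4.30) and 2.95 ± 0.213 in diabetic retinas (SD, n = 28, range 2.45 to 3.38). The ratio of Rnf123 to Cdkn1b was 1.84 ± 0.254 in control and 1.48 ± 0.156 in diabetic retinas, so that substrate transcript per ligase transcript was 0.552 ± 0.0720 and 0.685 ± 0.0743. The ratio of substrate to partner was 2.03 ± 0.216 in control retinas and 2.02 ± 0.245 in diabetic retinas. The ratios with Rnf123 carry its own difference and are no further evidence for it.

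**Figure D3:**
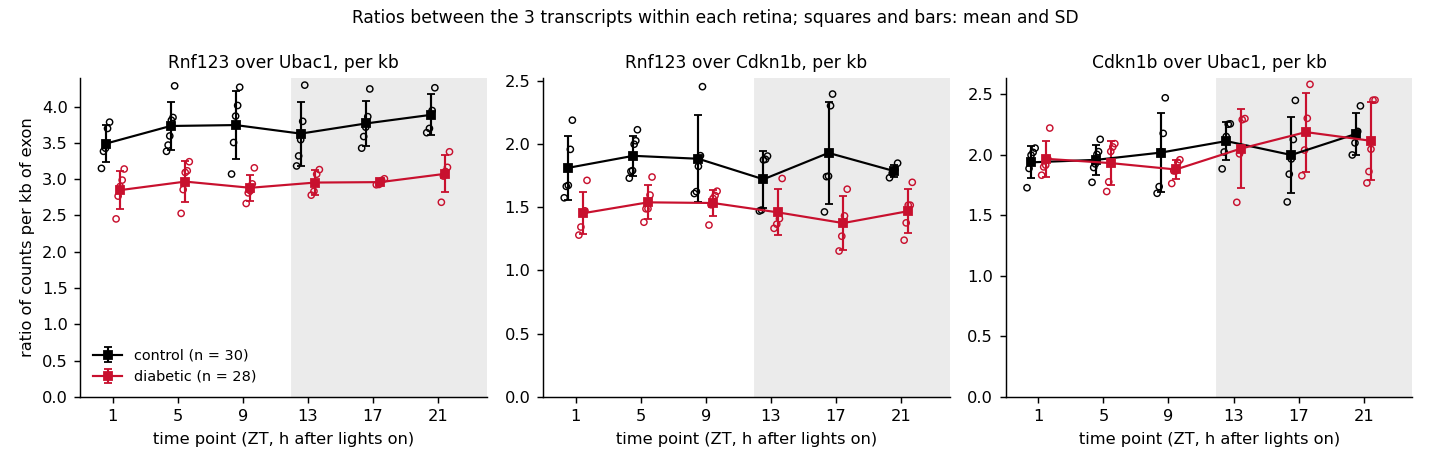
Ratios between the 3 transcripts per kilobase of exon within a library (y axes, from 0) against the time point in ZT hours (x axis), with 1 open circle per library, squares and bars for the mean and SD, black for control and red for diabetic retinas, and grey for lights off. Both ratios with Rnf123 on top are lower in diabetic retinas at every time point, and the ratio of Cdkn1b to Ubac1 (right) crosses between genotypes.

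Over the day the 3 transcripts varied little. A 24 h cosine fitted to Rnf123 had a relative amplitude of 3.11% of the mean (SE 2.39) in control and 0.361% (SE 1.70) in diabetic retinas. The fitted peak was at ZT18.1 in control retinas with an SE of 3.01 h, and in diabetic retinas its time could not be placed (SE 17.3 h). The control amplitude was 1.52% without ZT17 replicate 3 and 4.49% without ZT9 replicate 4, and the diabetic amplitude ran from 0.213% without ZT1 replicate 5 to 1.01% without ZT13 replicate 3. Cdkn1b had an amplitude of 4.52% (SE 1.95) with a peak at ZT17.6 in control and of 5.04% (SE 2.04) with a peak at ZT17.9 in diabetic retinas. Ubac1 had amplitudes of 1.88% (SE 1.52) and 1.82% (SE 2.01).

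Neither Cdkn1b nor Ubac1 was called rhythmic by the empirical JTK_CYCLE test, which 21.8% of all tested genes passed in control retinas and 23.9% in the diabetic group. A call needed an unadjusted p under 0.05 and a minimum fold between the highest and the lowest library. For Cdkn1b the permutation p was 0.104 in control and 0.273 in diabetic retinas. Its control value was close to the threshold, and it passed without ZT17 replicate 1 (p = 0.0389), ZT13 replicate 5 (p = 0.0490), ZT9 replicate 5 (p = 0.0496) or ZT1 replicate 6 (p = 0.0496), each left out alone, by the same permutation test. For Ubac1 the permutation p was 0.478 in control and 0.830 in diabetic retinas. The rhythms of Ubac1 and Cdkn1b did not differ detectably between genotypes (edgeR quasi-likelihood F test of the cosine terms, adjusted p = 1.00 for both, unadjusted p = 0.394 and 0.974). No gene of the 19120 passed this test (0%), with 657 at an unadjusted p under 0.05 by edgeR and 0 called by DESeq2.

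Across libraries the transcripts of the complex were only loosely related. As Rnf123 separated the genotypes, its relations are given within each, on log2 normalized counts with 3 pairs per family of libraries. In the 28 diabetic libraries Rnf123 and Ubac1 had a Pearson r of 0.42 (permutation p = 0.0275, adjusted p = 0.0824) and a Spearman rho of 0.50 (permutation p = 0.00756, adjusted p = 0.0227), and r was 0.36 without the 2 libraries farthest from the Rnf123 median. In the 30 control libraries the same pair had r = 0.26 (permutation p = 0.174, adjusted p = 0.363) and rho = 0.056 (permutation p = 0.770, adjusted p = 0.770), with r = 0.048 without 2 libraries. The difference between the genotypes in this relation was not tested. Rnf123 and Cdkn1b had r = -0.22 in control (permutation p = 0.244, adjusted p = 0.363) and r = -0.14 in diabetic retinas (permutation p = 0.489, adjusted p = 0.489), with rho of -0.23 (permutation p = 0.231) and -0.14 (permutation p = 0.471). Ubac1 and Cdkn1b, whose levels did not separate the genotypes, had r = -0.16 (permutation p = 0.246, adjusted p = 0.390) and rho = -0.13 (permutation p = 0.316) over all 58 libraries. These values pool time points. On deviations from the 12 group means, r was -0.26 for Ubac1 and Cdkn1b, -0.30 for Rnf123 and Cdkn1b and 0.28 for Rnf123 and Ubac1. Pearson's r was just under the threshold (permutation test, adjusted p = 0.0484 for each), while Spearman's rho did not pass (permutation test, adjusted p = 0.0706 for each). The shuffling took the 58 deviations as free of each other, although 12 group means had been removed. These p-values are therefore too small, and no call is drawn from them.

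The genes whose levels went most closely with each member were named by Spearman's rho over the 58 libraries among 12947 other genes with a mean of at least 50 normalized counts, as a description. For Rnf123 these were Tcf20 (rho = 0.81), Nxnl1 (0.78), Rhbdd2 (0.73), Zfp365 (0.72) and Rom1 (0.72). Tcf20 encodes a transcriptional coregulator, Nxnl1 the rod-derived cone viability factor, and Rom1 a membrane protein of photoreceptor outer segment discs. The 5 genes had log2 fold changes between genotypes of -0.25 to -0.12, and since rho was taken over both genotypes together, the choice of genes carries the genotype difference of Rnf123 and their sign is no result. Within genotypes rho with Rnf123 was 0.76 in control and 0.55 in diabetic retinas for Tcf20, 0.75 and 0.67 for Rom1, 0.53 and 0.53 for Rhbdd2, 0.51 and 0.36 for Nxnl1, and 0.27 and 0.25 for Zfp365.

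For Ubac1 the closest genes were Slc25a29 (rho = 0.67), a mitochondrial carrier of basic amino acids, Mrpl28 (0.66), a mitochondrial ribosome protein, Nup188 (0.62), a nuclear pore protein, Retreg3 (0.60), a receptor for autophagy of the endoplasmic reticulum, and Mapk14 (0.60), the kinase p38 alpha. For Cdkn1b they were Tmem200a (rho = 0.72), Sec62 (0.70), a part of the protein translocation machinery, C1ql3 (0.70), a secreted synaptic protein, Kif2a (0.68), a microtubule-depolymerizing kinesin, and Btbd1 (0.67). The 3 sets of 5 genes had no gene in common. The absolute log2 fold changes between genotypes of the 10 genes closest to Ubac1 and Cdkn1b were at most 0.043. These genes too were chosen over both genotypes together, so values as small as those of the members are no result.

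In the annotation 5 genes overlap Rnf123, all on the plus strand, and none overlaps Ubac1 or Cdkn1b. Gmppb, which encodes a GDP-mannose pyrophosphorylase, runs from 108049242 to 108052801 and had a mean of 103 normalized counts. Amigo3, an adhesion protein gene, runs from 108053159 to 108055701 and had 33.3. Their log2 fold changes were -0.093 (SE 0.051, edgeR, adjusted p = 0.385) and 0.10 (SE 0.075, edgeR, adjusted p = 0.587), so neither was called. Mst1 (2.09 normalized counts), Gm20529 (0.420) and Mir7088 (no read) were below the filter. The library kit keeps strand, but the strand setting of the counting is not given in the sources used here, and what part of the Rnf123 counts this touches was not tested.

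The other genes around the locus are given as a description, in a window set after the values were seen. Of 48 genes tested whose start lies within 500 kb of that of Rnf123, 0 were called by edgeR (8 at an unadjusted p under 0.05) and 0 by DESeq2. Among all genes 2.99% were called by edgeR and 15.5% had an unadjusted p under 0.05, so the neighbours stood near the background. Their median log2 fold change was 0.0091. Distances were taken from the Gencode start of Rnf123, not from the RefSeq start used for the printed sequence. The closest, Apeh, an acylaminoacyl peptidase whose start is 11.3 kb away, had -0.013 (SE 0.032, edgeR, adjusted p = 0.918). The lowest value was -0.15 (SE 0.054, edgeR, adjusted p = 0.136) for Gnat1, the rod transducin, and the highest 0.47 (SE 0.16, edgeR, adjusted p = 0.0935) for Gm37475, which had only 6.55 normalized counts.

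**Figure D4:**
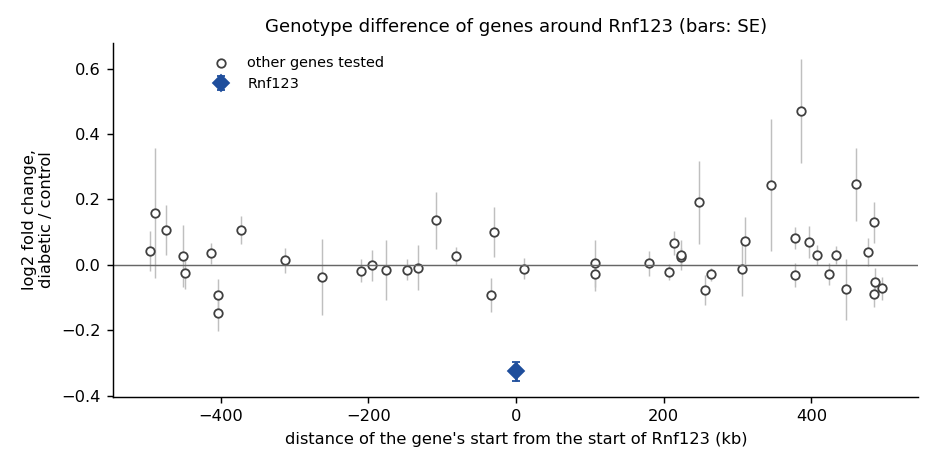
Log2 fold change of diabetic against control (y axis) of Rnf123 (diamond) and of the 48 other genes tested whose start lies within 500 kb (circles), against the distance of their start from that of Rnf123 in kb (x axis), with bars for the SE. Rnf123 lies at -0.33, below all neighbours, whose lowest value is -0.15.

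Other genes of p27 turnover and of the ligase's further roles were followed in 8 lists with 79 genes, of which 76 were tested, and in a reference list of 15 clock genes. Over all lists 3 of 91 genes tested were called between genotypes over all time points, all 3 higher in diabetic retinas, a share close to that of all genes (2.99%). The called genes were Cdkn1a, Nfkbia and Cry2, and DESeq2 added Cdk2. The counts at an unadjusted p under 0.05 given below stand beside 15.5% of all genes. The median log2 fold change of the 76 genes was 0.0091, against 0.0012 for all 19120 genes. Of the 76 genes, 17 passed the rhythm test in control retinas, where 21.8% of all genes did, and 18 passed it in diabetic retinas, where 23.9% did.

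Of the 10 genes of other p27 ligases, none was called (edgeR, with 1 at an unadjusted p under 0.05, and 0 by DESeq2), and their median log2 fold change was 0.011. Skp2, the receptor that brings p27 to the SCF ligase, was scarce with 26.3 ± 6.26 normalized counts in control and 24.4 ± 6.26 in diabetic retinas, and had -0.12 (SE 0.096, edgeR, adjusted p = 0.598). Its cofactor Cks1b had 0.31 (SE 0.13, edgeR, adjusted p = 0.227) from 11.5 and 14.3 normalized counts. The cullins Cul4a and Cul4b passed the rhythm threshold in control retinas and no gene of this list did in diabetic retinas, a difference that was not tested.

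Of the other CDK inhibitors, 5 of 6 were tested and 1, Cdkn1a, was higher in diabetic retinas (3 of the 5 at an unadjusted p under 0.05 by edgeR). Cdkn1a encodes p21, a close relative of p27 that is known as a target of p53. Its normalized counts were 27.7 ± 8.004 in control (SD, n = 30) and 40.0 ± 14.7 in diabetic retinas (SD, n = 28), with a log2 fold change of 0.52 (SE 0.12, edgeR, adjusted p = 0.00624). The call did not hold without ZT17 (0.45, edgeR, adjusted p = 0.0562) or without ZT21 (0.46, edgeR, adjusted p = 0.0657). Cdkn2b, an Ink4 inhibitor, had -0.37 (SE 0.17, edgeR, adjusted p = 0.276) from 6.78 and 5.33 normalized counts. The median of the 5 genes was 0.088, and 4 of the 5 were above 0.

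The kinases and cyclins that p27 holds in check, 9 of 10 tested, had a median log2 fold change of 0.074, with 8 of the 9 above 0 and 0 called by edgeR (3 at an unadjusted p under 0.05). Cdk2, the main kinase bound by p27, had 29.97 ± 7.56 normalized counts in control and 36.7 ± 8.80 in diabetic retinas and a log2 fold change of 0.30 (SE 0.092, edgeR, adjusted p = 0.0584), which passed with DESeq2 (adjusted p = 0.0383). Ccne2, one of its cyclins, had 0.20 (SE 0.084, edgeR, adjusted p = 0.226). Among 12 regulators of Cdkn1b transcription, phosphorylation and export none was called, none had an unadjusted p under 0.05 by edgeR, and DESeq2 called 0, with a median of 0.023. The exportin Xpo1 had -0.14 (SE 0.088, edgeR, adjusted p = 0.494) and the kinase Src 0.075 (SE 0.041, edgeR, adjusted p = 0.376).

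Of 12 NF-kB subunits and inhibitors, 2 had an unadjusted p under 0.05 by edgeR and 1 was called, Nfkbia, which encodes the inhibitor IkB alpha and is itself a target of NF-kB. It had 296 ± 33.5 normalized counts in control (SD, n = 30, median 295) and 366 ± 66.5 in diabetic retinas (SD, n = 28, median 362). The libraries overlapped, from 241 to 410 in control and from 259 to 597 in diabetic retinas. The log2 fold change was 0.30 (SE 0.053, edgeR, adjusted p = 0.000253) over all time points and 0.50 (SE 0.11, edgeR, adjusted p = 0.0218) at ZT17, and Nfkbia was rhythmic in both genotypes. Nfkb1, whose precursor p105 is processed with Rnf123, had 0.062 (SE 0.031, edgeR, adjusted p = 0.314). Bcl3 had -0.17 (SE 0.19, edgeR, adjusted p = 0.765) at about 5 normalized counts, and the median of the list was 0.00034.

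Of 7 genes of RIG-I-like receptor signalling none was called by edgeR (2 at an unadjusted p under 0.05) or DESeq2, and the median was 0.086. Values lay on both sides of 0, with 4 of the 7 above it. Ddx58, which encodes RIG-I, had 0.17 (SE 0.055, edgeR, adjusted p = 0.0749), and its adaptor Mavs had -0.11 (SE 0.036, edgeR, adjusted p = 0.0881). The interferon regulatory factor Irf7 had 0.34 (SE 0.23, edgeR, adjusted p = 0.515), with a wide spread of 343 ± 233 normalized counts in control and 434 ± 275 in diabetic retinas. Of the 9 ubiquitin, E1 and E2 genes tested none was called by edgeR (2 at an unadjusted p under 0.05) or DESeq2, with a median of -0.00081. Of 12 proteasome receptors and shuttle factors none was called by edgeR or DESeq2 and none had an unadjusted p under 0.05. Their values lay between -0.050 for Ubqln2 and 0.050 for Adrm1.

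In the clock reference list Cry2, a repressor of the clock, was called at 0.11 (SE 0.029, edgeR, adjusted p = 0.0211), with 2065 ± 158 normalized counts in control and 2231 ± 182 in diabetic retinas. The call was lost when ZT5 (0.095), ZT13 (0.11), ZT17 (0.095) or ZT21 (0.11) was left out. Cry1 had 0.12 (SE 0.038, edgeR, adjusted p = 0.0757). Of the 15 clock genes 3 had an unadjusted p under 0.05 between genotypes by edgeR. In each genotype 7 of the 15 were rhythmic, while Cdkn1b and Ubac1 were not called in either.

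**Figure D5:**
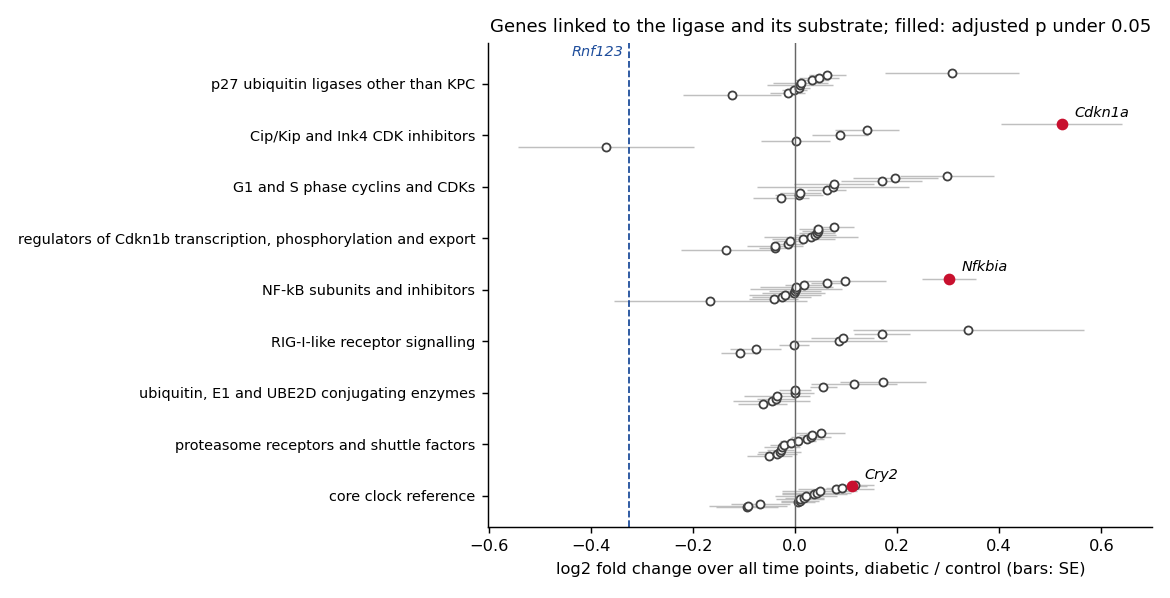
Log2 fold change of diabetic against control over all time points (x axis) of the tested genes of 9 lists (rows), with bars for the SE and filled points for an adjusted p under 0.05 (edgeR). The called genes Cdkn1a (0.52), Nfkbia (0.30) and Cry2 (0.11) lie to the right of 0, and the dashed line marks Rnf123 at -0.33.

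Marker genes of the retinal cell types were counted in the same fit over all time points. Of 5 rod markers, all had a log2 fold change below 0 (median -0.089) and 0 were called by edgeR (3 at an unadjusted p under 0.05) or DESeq2, and their summed level ran from 493384 to 736787 normalized counts in control and from 480563 to 676565 in diabetic retinas. Of 5 cone markers, all below 0 with a median of -0.12, 2 were called lower by edgeR and 3 by DESeq2. These were, by edgeR, the transducin Gnat2 at -0.12 (SE 0.028, edgeR, adjusted p = 0.0076) and the phosphodiesterase subunit Pde6h at -0.14 (SE 0.028, edgeR, adjusted p = 0.00173). The summed cone level ran from 10526 to 12779 in control and from 9981 to 12407 in diabetic retinas.

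All 4 microglia markers were below 0 (median -0.15), with a summed level of 114 to 185 in control and 95.01 to 182 in diabetic retinas. Of these 1 was called lower, the chemokine receptor Cx3cr1 at -0.23 (SE 0.067, edgeR, adjusted p = 0.0448), a call that did not hold without the 3 libraries with lens transcripts (-0.22, edgeR, adjusted p = 0.0743). All 4 bipolar cell markers were below 0 (median -0.10, 3 at an unadjusted p under 0.05 by edgeR), with a sum of 16096 to 24328 in control and 14709 to 23098 in diabetic retinas. All 4 ganglion cell markers were above 0 (median 0.074, 2 at an unadjusted p under 0.05 by edgeR), with a sum of 5265 to 8123 in control and 5802 to 8381 in diabetic retinas. The medians were -0.023 for 4 Müller glia markers, -0.016 for 4 amacrine, -0.061 for 4 endothelial, -0.022 for 3 pericyte and -0.11 for 4 pigment epithelium markers. No marker of bipolar, ganglion, Müller glia, amacrine, endothelial, pericyte or pigment epithelium cells was called by edgeR or DESeq2.

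The pigment epithelium is the layer behind the retina. At ZT5 its 4 markers summed to 450 to 1974 normalized counts in control and 317 to 469 in diabetic retinas, with log2 fold changes of -1.61 for Rpe65 (SE 0.41, edgeR, adjusted p = 0.15), -1.31 for Rgr (SE 0.31, edgeR, adjusted p = 0.0878), -1.27 for Ttr (SE 0.33, edgeR, adjusted p = 0.167) and 0.15 for Best1 (SE 0.33, edgeR, adjusted p = 0.998), none of which passed. The median sum was lower in diabetic than in control retinas at ZT1 (768 and 813), ZT5 (432 and 869.8), ZT9 (1533 and 2267) and ZT17 (1774 and 2201). It was higher at ZT13 (2530 and 2314) and ZT21 (3019 and 2856). The Rnf123 value at ZT5 was -0.31, and the part of this tissue in it was not tested.

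The lens gene Cryaa, the only one of 4 lens markers that passed the filter, was called at -5.01 (SE 0.96, edgeR, adjusted p = 0.00097) through the 3 control libraries with lens transcripts. It had 1.63 without them (SE 0.64, edgeR, adjusted p = 0.189) and 0.077 with DESeq2 (adjusted p = 0.982). No marker of red blood cells or dividing cells passed the filter. The part of these cell types in the Rnf123 difference was not tested. Rnf123 itself had -0.33 without the libraries with lens transcripts.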

How the data were processed

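Total RNA of individual retinal samples was depleted of ribosomal RNA and sequenced with paired ends. The authors aligned the reads to GRCm38.p5 with STAR (2.7.4a), annotated them with Gencode and counted reads per gene with HTSeq (0.11.1), and deposited raw counts of 52459 gene symbols, neither normalized nor filtered. From these counts, libraries were scaled by DESeq2 (1.42.0) size factors for levels, rhythm and correlations, and by TMM factors in edgeR (4.0.16) for the quasi-likelihood tests, run in R 4.3.3 on the 19120 genes with a median above 4 normalized counts. The genotypes were compared with 1 group per genotype and, per time point, in a fit of 12 groups. The p-values of these tests were adjusted by Benjamini-Hochberg over all genes tested. Empirical JTK_CYCLE was re-implemented (24 h period, 6 phases, 5 widths, 1000000 shuffles), and the cosine was fitted by least squares. The methods were tested on simulated data. Levels per kilobase used the union of exons in a later Gencode release (M21) than the one used for counting (M15), so gene models can differ. Named list genes were those called and the 2 with the largest change per list, except that some are not reported here. Nfkb1, Mavs, Cul4a, Cul4b, the genes near Rnf123 and single marker genes were named after their values were seen. The members and gene lists were chosen with earlier results of these data known. Alternatives were other scalings, filters and tests, libraries or time points left out and a block of replicate numbers, and 2 left-out sets of libraries were chosen after seeing the data. Every column was used.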

Additional observations from a re-analysis of the deposited data

Results flagged for a closer look

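A single outlying library was found among the 36 groups of the 3 genes, where chance alone gives about 1 in 20 groups. In control ZT21 replicate 4 Rnf123 had 4625 normalized counts, while the other 3 libraries of that group lay close together, between 4227 and 4290. The library is further from the diabetic level than its group, and without it the log2 fold change at ZT21 was -0.31 in place of -0.34.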

How the results depend on the processing

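Rnf123 was lower in diabetic retinas in all 172 refits, with log2 fold changes between -0.45 and -0.22, and between -0.33 and -0.30 in the 72 refits over all time points. Leaving out 1 library gave -0.33 to -0.31 over all time points. The sign of Ubac1 and Cdkn1b, which were near 0 and never called, was not stable. Leaving out 1 library gave -0.00085 to 0.015 for Ubac1 and -0.014 to 0.0040 for Cdkn1b over all time points. Ubac1 turned to -0.010 without ZT9 and Cdkn1b to 0.0071 without ZT13. At ZT1 Cdkn1b turned to -0.0051 with DESeq2 size factors, -0.0051 with no filter, -0.0018 with edgeR's own filter, -0.012 with the replicate block, -0.0051 with DESeq2 and -0.051 without the lens libraries. At ZT5 it was -0.016 with the block. At ZT17 Ubac1 was 0.0073 without the 2 libraries least like the others. Leaving out 1 library gave -0.044 to 0.022 (ZT1), -0.024 to 0.049 (ZT5), -0.059 to 0.014 (ZT13) and -0.030 to 0.055 (ZT21) for Ubac1, and -0.051 to 0.048 (ZT1), -0.027 to 0.046 (ZT5), -0.044 to 0.043 (ZT9) and -0.12 to 2.8e-05 (ZT13) for Cdkn1b. The causes were not tested.

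Counts of called genes moved more. Over all time points 572 genes were called (303 higher), and 888 (458 higher) with 12 groups. With no filter 194 were higher. Without ZT1 the count was 322 (169 higher), without ZT5 267 (162), without ZT9 357 (195), without ZT17 239 (119) and without ZT21 225 (109), where fewer libraries entered. Leaving out 1 library gave 431 to 611 genes (222 to 332 higher). By edgeR and DESeq2 respectively, 2 and 6 genes were called (ZT1), 4 and 24 (ZT5), 1 and 4 (ZT9), 0 and 1 (ZT13), 32 and 87 (ZT17) and 0 and 2 (ZT21). With no filter the counts included 1 gene (ZT1), 3 (ZT9) and 1 (ZT21). Without the lens libraries there were 4 (ZT1) and 0 (ZT9). Leaving out 1 library gave 0 to 4 genes (ZT1), 2 to 5 (ZT5), 0 to 2 (ZT9), 0 to 1 (ZT13), 3 to 96 (ZT17) and 0 to 1 (ZT21). The ZT17 count was 96 without diabetic replicate 1, 54 without replicate 3, 15 without replicate 4 and 3 without replicate 5. For the difference in rhythm 1 library left out gave 0 to 1 gene, and no filter gave 3. With adjusted p-values the rhythm test called 1573 genes in control retinas and 1967 in the diabetic group. Leaving out 1 library gave a permutation p of 0.039 to 0.199 for the rhythm of Cdkn1b in control retinas.

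On deviations from group means over all 58 libraries the Pearson correlation of Ubac1 and Cdkn1b was -0.26 (permutation test, adjusted p = 0.0484), and its Spearman's rho of -0.24 did not pass (permutation test, adjusted p = 0.0706). The pairs with Rnf123 had 0.28 (Ubac1) and -0.30 (Cdkn1b) with the same adjusted p-values. The removal of the group means was not allowed for in these p-values, which are therefore too small to rest a call on. With the replicate block 509 genes were called over all time points, 10 at ZT5, 2 at ZT9 and 60 at ZT17, and Rnf123 had -0.33. The numbers were not treated as pairs, since that needed every same-numbered pair of libraries to correlate above 0.1 and 15 of 26 did (from -0.20 to 0.55). The median r was nevertheless 0.11 for these and -0.026 for 114 pairs with different numbers, and 11 of 26 diabetic libraries were closest to their own number. The sets without the lens libraries and without the 2 libraries least like the others were chosen after seeing the data.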
